A study of Mus musculus with 9 samples.

Results

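The genes described here encode 45 proteins of the lysosome: 8 acid proteases, 11 glycosidases, 4 sulfatases, 6 lipid and phosphate hydrolases, 4 activators and luminal carriers, 7 membrane proteins, 4 subunits of the proton pump (V-ATPase) and the transcription factor TFEB. They were taken by name from a list, with no threshold on measured values, though with earlier results of these data known, and each was represented by its brightest probe set, judged by mean log2 intensity. Of the 45 genes 44 were measured, among 18193 genes in all. Cd63, a membrane protein of late endosomes and granules, was not analysed here.

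The study sorted 3 myeloid populations from the bone marrow of normal, untreated C57BL/6 mice between 4 and 10 weeks old, male or female, and hybridised 3 samples of each to Affymetrix mouse arrays. Neutrophils lacked c-kit and carried Gr1 and Mac1. Mac1+ myeloblasts carried c-kit, Gr1 and Mac1. Mac1- myeloblasts carried c-kit and Gr1, with Mac1 low or absent. Both c-kit+ populations had been depleted by sorting of cells with the lineage antigens CD3, CD4, CD8, B220, IL7Rα and TER119, and the labels describe their cytology as undifferentiated or myeloblastic. A gate is not a pure stage: each population is a mixture of cells, and in such samples fewer cells of a type and less RNA per cell cannot be told apart. The labels do not say whether replicates came from separate animals, so the p-values rest on a spread among samples that may be no more than technical. Of the genes behind the gates, Kit had 94.9, 295 and 331 on the neutrophil arrays, 3336, 3176 and 3469.9 on the Mac1+ arrays and 2998, 3217 and 3228 on the Mac1- arrays. Itgam, which encodes Mac1, had 2027, 3553 and 3675 on the neutrophil arrays, 919.8, 823 and 695 on the Mac1+ arrays and 74.1, 69.2 and 71.7 on the Mac1- arrays. Mmp8, a collagenase of late neutrophil granules, ranged from 12308 to 14115 in neutrophils, 128 to 138 in Mac1+ myeloblasts and 102 to 182 in Mac1- myeloblasts.

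Lysosomes are acidic vesicles in which hydrolases break down proteins, glycans, glycosaminoglycans, lipids and phosphate esters. Most of these enzymes are tagged with mannose 6-phosphate in the Golgi and carried to the lysosome by sorting receptors, while small activator proteins present lipid substrates to them, and the V-ATPase keeps the lumen acidic. In differentiating neutrophils part of this machinery supplies the azurophil granules, which form at the promyelocyte stage and contain lysosomal hydrolases beside myeloperoxidase and serine proteases. TFEB and its relatives TFE3, MITF and TFEC are basic helix-loop-helix factors that bind an E-box with the letters CACGTG in the promoters of many lysosomal genes, the core of the CLEAR element.

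Promoters from the RefSeq table of the assembly GRCm38.p6, reaching 250 bases before to 50 after each gene's start, were found for 38 of the 44 measured genes. The letters CACGTG, which read the same on both strands, occurred in promoters of 14 of these 38 genes (36.8%), against 8.09% of all 27025 genes in the table. The longer form TCACGTGA, each copy of which also counts as a CACGTG, occurred in 6 of the 38 genes (15.8%), against 1.12% of all genes. The 150 bases before the start are printed 5′ to 3′ on the gene's strand, with CACGTG in capitals, for the 11 genes that hold the motif in that stretch and were called between neutrophils and Mac1+ myeloblasts. They are shown because genes with the same letters near the start differed in opposite directions. Arsa, Ctsa, Ctsd, Lgmn and Sgsh were higher in neutrophils, and Atp6v1a, Gaa, Glb1, Lamp1, Mcoln1 and Naglu were lower. The calls of Arsa, Ctsa, Lgmn, Sgsh and Atp6v1a did not hold under every alternative way of processing described below. A second, dim probe set of Sgsh was called lower.
Arsa: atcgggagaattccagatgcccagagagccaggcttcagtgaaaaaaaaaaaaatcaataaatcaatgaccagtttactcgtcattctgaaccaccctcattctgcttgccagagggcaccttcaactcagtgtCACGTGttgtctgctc
Ctsa: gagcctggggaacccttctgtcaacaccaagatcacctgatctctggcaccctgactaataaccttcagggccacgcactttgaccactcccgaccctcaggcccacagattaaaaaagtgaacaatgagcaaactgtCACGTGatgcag
Ctsd: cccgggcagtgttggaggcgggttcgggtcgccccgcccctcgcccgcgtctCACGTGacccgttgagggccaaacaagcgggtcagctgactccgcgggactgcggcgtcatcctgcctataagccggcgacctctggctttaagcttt
Lgmn: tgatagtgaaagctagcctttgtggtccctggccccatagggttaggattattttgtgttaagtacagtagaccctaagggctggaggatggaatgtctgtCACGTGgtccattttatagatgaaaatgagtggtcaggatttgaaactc
Sgsh: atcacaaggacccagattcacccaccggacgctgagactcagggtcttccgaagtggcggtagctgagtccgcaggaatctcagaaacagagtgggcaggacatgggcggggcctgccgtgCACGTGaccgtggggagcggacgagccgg
Atp6v1a: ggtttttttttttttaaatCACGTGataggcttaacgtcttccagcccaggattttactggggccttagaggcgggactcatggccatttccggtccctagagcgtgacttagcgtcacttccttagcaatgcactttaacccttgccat
Gaa: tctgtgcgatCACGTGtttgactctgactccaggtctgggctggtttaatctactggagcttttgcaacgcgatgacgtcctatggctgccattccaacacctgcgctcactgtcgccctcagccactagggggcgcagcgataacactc
Glb1: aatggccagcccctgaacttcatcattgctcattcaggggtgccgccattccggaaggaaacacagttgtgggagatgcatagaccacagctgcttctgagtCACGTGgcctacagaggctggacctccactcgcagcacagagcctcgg
Lamp1: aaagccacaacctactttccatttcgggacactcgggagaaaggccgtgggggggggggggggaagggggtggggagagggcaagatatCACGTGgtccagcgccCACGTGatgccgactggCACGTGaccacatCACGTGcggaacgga
Mcoln1: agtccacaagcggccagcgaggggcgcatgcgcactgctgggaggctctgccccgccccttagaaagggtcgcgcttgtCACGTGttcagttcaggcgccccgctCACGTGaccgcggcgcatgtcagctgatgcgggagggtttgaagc
Naglu: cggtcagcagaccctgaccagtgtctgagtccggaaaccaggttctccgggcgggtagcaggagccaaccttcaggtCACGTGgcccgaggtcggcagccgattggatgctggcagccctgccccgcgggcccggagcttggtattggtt
These windows lie, in GRCm38.p6, at chr15:89477425-89477574 (Arsa, minus strand), chr2:164833623-164833772 (Ctsa, plus strand), chr7:142387828-142387977 (Ctsd, minus strand), chr12:102439093-102439242 (Lgmn, minus strand), chr11:119355511-119355660 (Sgsh, minus strand), chr16:44139260-44139409 (Atp6v1a, minus strand), chr11:119267813-119267962 (Gaa, plus strand), chr9:114400928-114401077 (Glb1, plus strand), chr8:13159011-13159160 (Lamp1, plus strand), chr8:3500369-3500518 (Mcoln1, plus strand) and chr11:101069944-101070093 (Naglu, plus strand). The Lamp1 window holds 4 copies, whose first bases lie 61, 45, 28 and 15 bases before the start, and the Mcoln1 window holds 2 copies, 71 and 45 bases before it. Among genes higher in neutrophils the single copy in the window begins 12 bases before the start of Ctsa, 16 before Arsa, 29 before Sgsh, 49 before Lgmn and 98 before Ctsd. Among genes lower in neutrophils it begins 48 bases before the start of Glb1, 73 before Naglu, 131 before Atp6v1a and 140 before Gaa. The promoters of Ctsa and Ctsd each hold another copy outside the printed window. Ctsa and Lgmn each have another start in the RefSeq table, whose promoter holds no copy. A match to these letters is a description of the sequence and does not show that a factor binds there.

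All values below are intensities of probe sets as deposited, on a linear scale. Differences and standard errors (SE, n = 3 arrays in each population) are on the scale of log2(intensity + 16), fold changes are taken from them, and genes are called at a limma adjusted p under 0.05 over all 18193 genes. Probe sets differ in brightness for the same amount of RNA, so levels were compared between populations and not between genes. Neutrophil array 1 stood apart from the other neutrophil arrays. Its correlation with neutrophil arrays 2 and 3 over all genes was 0.94 and 0.926, while arrays 2 and 3 correlated at 0.986 with each other and myeloblast replicates at 0.987 to 0.994. The array was higher than the other neutrophil arrays for the azurophil granule genes Mpo (7132, 1712 and 778 on neutrophil arrays 1, 2 and 3), Elane (2199, 451 and 208) and Prtn3 (3349, 841 and 413). Its ratio of 3′ to 5′ Gapdh control signal was 2.70, against 2.06 and 2.16 on the other neutrophil arrays and 2.47 on Mac1+ array 3. The same ratio for the actin control did not set it apart, at 1.55 against 1.52 and 1.84 on the other neutrophil arrays. Lysosomal genes differed on neutrophil array 1 too. This array differed from the mean of arrays 2 and 3 by over 0.5 on the log2 scale for 22 of the 44 genes, and by over 1 for Ctsz, Gla, Glb1, Manba, Naglu and Atp6v1a, which were all lower on array 1. The median absolute deviation of array 1 was 0.47 over the 44 genes and 0.53 over all genes. Counts of calls over the 44 genes and over each further list are given with and without neutrophil array 1, as are the differences of some genes. For the other genes differences are given with all arrays only.

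Between neutrophils and Mac1+ myeloblasts the lysosomal genes differed in both directions. Of the 44 genes 18 were higher in neutrophils, 15 were lower and 11 did not pass the test. The called share of 75.0% stands beside 48.1% of all genes (19.7% higher and 28.4% lower). A separate fit of the 10916 genes at or above the 40th percentile of mean level, which include 43 of the 44, called 18 higher and 16 lower, or 79.1% of the 43, beside 71.3% of the genes in that fit. The median difference was 0.10 over the 44 genes and 0.05 over all genes, with a range from -3.47 (Acp5) to 7.36 (Slc15a3). In the separate fit, which leaves out dim genes, the median was 0.02 over the 43 genes and -0.41 over all genes of that fit. The groups did not overlap for 37 of the 44 genes, beside 54.6% of all genes, dim ones included. Without neutrophil array 1, 19 were higher and 20 were lower, beside 54.0% of all genes called.

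Against Mac1- myeloblasts, neutrophils had 14 of the 44 genes higher, 15 lower and 15 that did not pass, so that 65.9% were called. The background was 52.6% of all genes (22.6% higher and 30.0% lower). The fit without dim genes called 14 higher and 15 lower of 43, or 67.4%, beside 75.7% of its genes. The median difference was 0.05 both over the 44 genes and over all genes. In the fit without dim genes it was 0.03 over the 43 genes and -0.41 over all genes of that fit. The groups did not overlap for 32 of the 44 genes, beside 59.1% of all genes, dim ones included. Without neutrophil array 1, 16 were higher and 16 lower, beside 58.3% of all genes called. Both neutrophil comparisons share the neutrophil arrays. In the 2 of them together, 11 genes were called higher in both (Ctsd, Fuca1, Ids, Sgsh, Ppt1, Lipa, Smpd1, Npc1, Slc15a3, Atp6ap1 and Tfeb) and 14 were called lower in both (Ctsb, Ctsz, Gaa, Gla, Glb1, Gusb, Naglu, Arsb, Acp2, Acp5, Npc2, Lamp1, Scarb2 and Mcoln1). No gene was called in opposite directions. The share of all genes called in the same direction in both comparisons is not given here, so these counts have no background beside them.

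The 2 myeloblast populations differed less. Between Mac1+ and Mac1- myeloblasts 1 gene, Neu1, was higher, 4 (Ctsh, Ctsl, Gm2a and Psap) were lower, and 39 did not pass. The called share of 11.4% stands beside 11.8% of all genes (6.31% higher and 5.51% lower). The fit without dim genes called 5 higher and 6 lower of 43, or 25.6%, beside 23.4% of its genes. The groups nevertheless did not overlap for 38 of the 44 genes, beside 39.9% of all genes, dim ones included. The median difference was -0.16, beside -0.01 over all genes. The count of calls depended on the estimate of spread that all 9 arrays share: without neutrophil array 1, which is in neither group, 11 genes were higher and 15 lower (23.0% of all genes called). A fit of the myeloblast arrays alone gave 10 higher and 16 lower, beside 4509 of all 18193 genes called. Over the 3 comparisons 37 genes were called at least once, 7 never (Tpp1, Hexa, Idua, Asah1, Grn, Lamp2 and Atp6v1b2) and none in all 3. Of all genes 57.7% were called at least once.

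**Figure D1:**
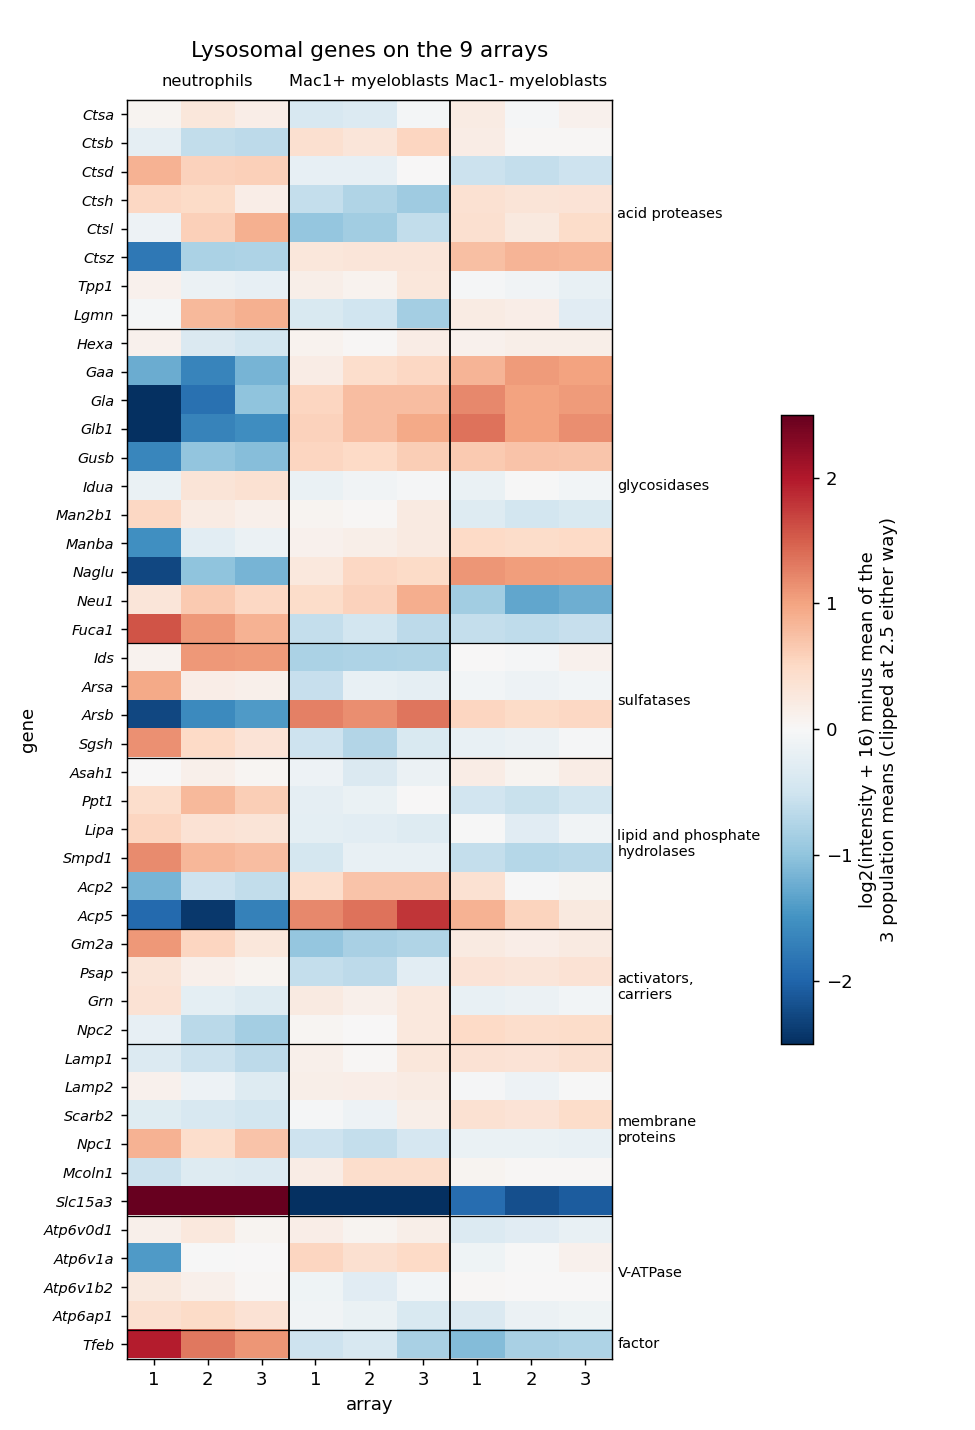
Each row is a lysosomal gene and each column an array, with neutrophils on the left, Mac1+ myeloblasts in the middle and Mac1- myeloblasts on the right; colour is log2(intensity + 16) minus the mean of the 3 population means, clipped at 2.5 in either direction. The columns of neutrophil array 1 and arrays 2 and 3 differ most in the rows of Glb1, Gla, Naglu, Manba and Atp6v1a, and Slc15a3 lies beyond the clip on all 3 neutrophil arrays.

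**Figure D2:**
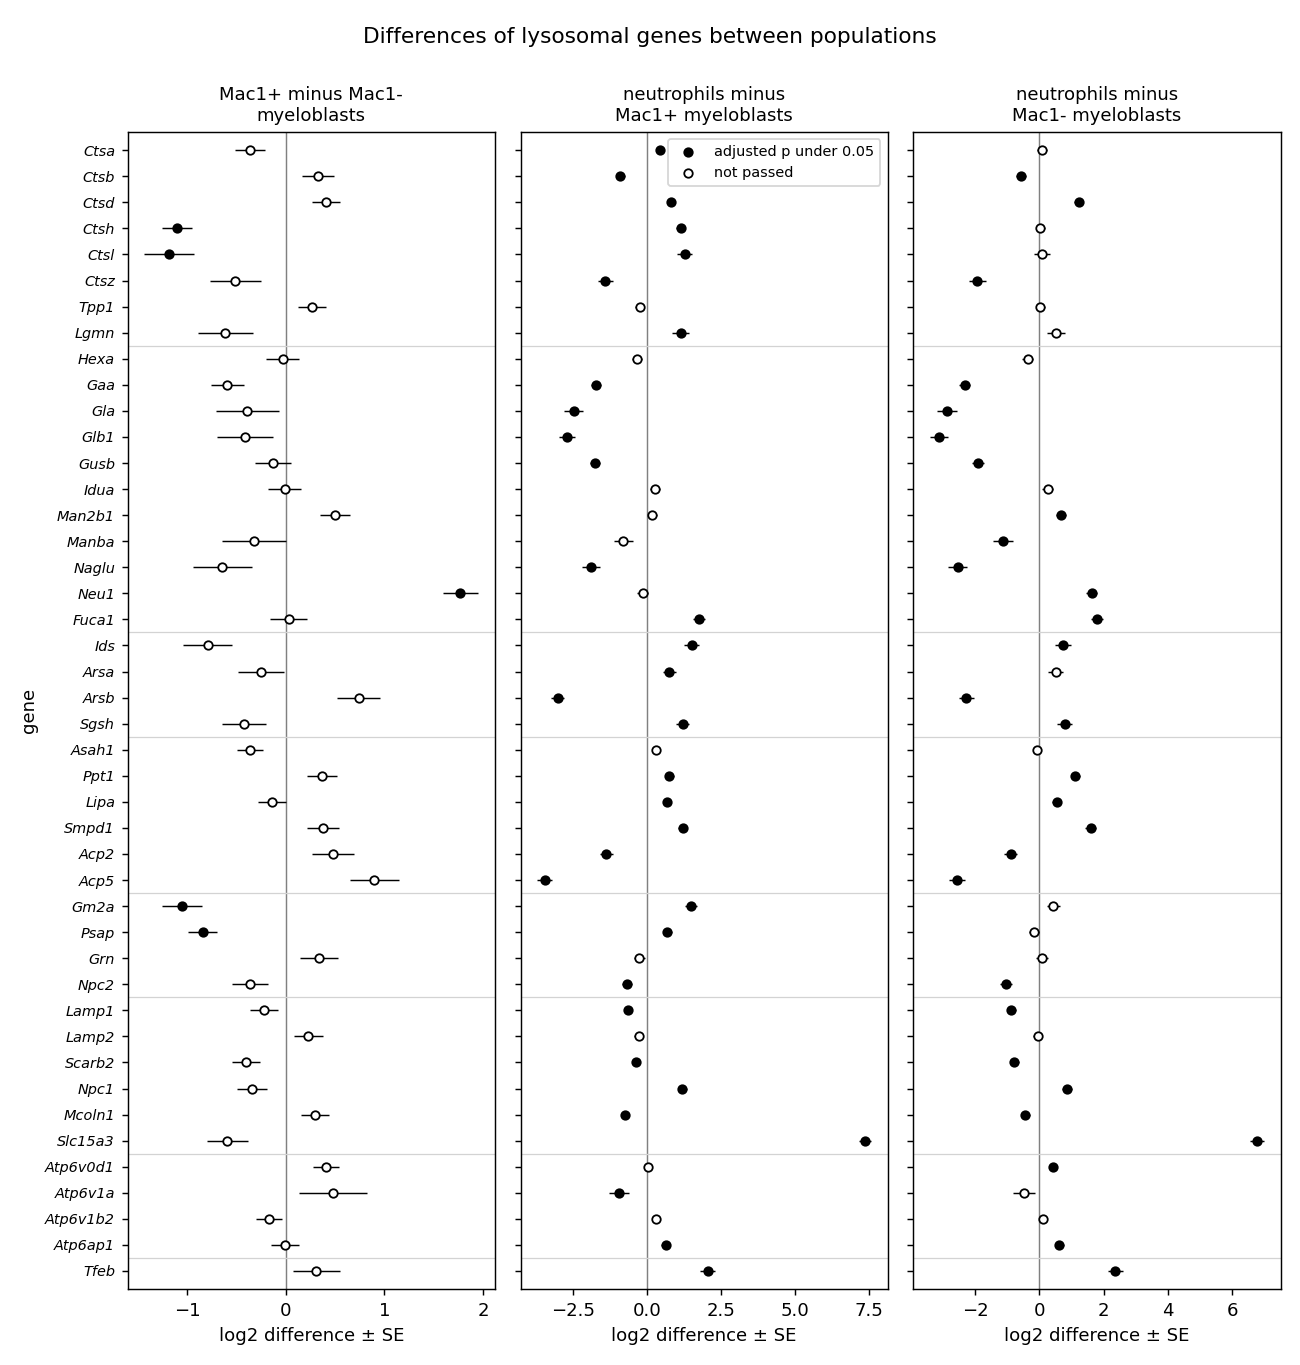
Log2 differences with SE (bars) for the 44 genes in each comparison, with filled circles for an adjusted p under 0.05 and open circles for genes that did not pass; the horizontal axes have different ranges. Filled circles lie on both sides of 0 in both neutrophil panels, and 5 are filled in the panel of the 2 myeloblast populations.

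Among the 8 acid proteases, 5 were higher and 2 lower in neutrophils than in Mac1+ myeloblasts, and 1 was higher and 2 lower than in Mac1- myeloblasts. Ctsd, the main aspartic protease of lysosomes, had intensities of 10609.9, 8626 and 8724 on the neutrophil arrays, 5036, 5012 and 5870.4 on the Mac1+ arrays and 4011, 3857 and 4046 on the Mac1- arrays. The lowest neutrophil value lay above the highest of either myeloblast population. The difference was 0.81 ± 0.14 against Mac1+ myeloblasts (1.75-fold, adjusted p = 0.00134) and 1.22 ± 0.14 against Mac1- myeloblasts (2.33-fold, adjusted p = 7.79e-05). Ctsz, a cysteine carboxypeptidase, ran the other way, with 1379, 2770.3 and 2807 on the neutrophil arrays, 5864, 5957 and 5962 on the Mac1+ arrays and 8079.7, 8657 and 8596 on the Mac1- arrays. Neutrophil array 1 was lowest of all 9, and the 3 populations did not overlap. Ctsz was lower in neutrophils, with differences of -1.42 ± 0.26 (adjusted p = 0.00143) against Mac1+ myeloblasts and -1.93 ± 0.26 (adjusted p = 0.00017) against Mac1- myeloblasts, and of -1.08 and -1.59 without neutrophil array 1.

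A pair of cysteine cathepsins was lower in Mac1+ myeloblasts than in either other population. Ctsh, an aminopeptidase, had 5695, 5571 and 4484 on the neutrophil arrays, 2631, 2369.8 and 2157 on the Mac1+ arrays and 5230.4, 5016 and 5068 on the Mac1- arrays. The neutrophil and Mac1- values overlapped, and the Mac1+ values lay below both. Ctsh differed by -1.10 ± 0.15 (adjusted p = 0.00145) between Mac1+ and Mac1- myeloblasts, by 1.13 ± 0.15 (adjusted p = 0.000203) between neutrophils and Mac1+ myeloblasts, and by 0.03 ± 0.15 (adjusted p = 0.874) between neutrophils and Mac1- myeloblasts. In a fit of every probe set on its own, the dimmer probe set of Ctsh had the same calls in the first 2 of these comparisons. It was also called higher in neutrophils than in Mac1- myeloblasts (0.58 ± 0.17, adjusted p = 0.0198). Ctsl, an endopeptidase that also processes other cathepsins, had 728, 1212 and 1492 on the neutrophil arrays, 401, 428 and 518 on the Mac1+ arrays and 1052, 945 and 1095 on the Mac1- arrays. All Mac1+ values were again below the rest. Its difference was -1.18 ± 0.25 (adjusted p = 0.0151) between the myeloblast populations and 1.27 ± 0.25 (adjusted p = 0.00243) between neutrophils and Mac1+ myeloblasts; the first of these missed the threshold once Mac1+ array 1, Mac1+ array 2, Mac1- array 1 or Mac1- array 3 was dropped, with adjusted p from 0.0601 to 0.0686.

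Tpp1, which removes tripeptides from the ends of proteins, was not called, with 3336, 2789.8 and 2657 on the neutrophil arrays, 3414, 3292 and 3754 on the Mac1+ arrays and 3032, 2897 and 2706 on the Mac1- arrays. Its difference was -0.26 ± 0.14 (adjusted p = 0.177) against Mac1+ myeloblasts and 0.02 ± 0.14 (adjusted p = 0.926) against Mac1- myeloblasts, and the first became -0.35 (adjusted p = 0.0296) without neutrophil array 1. Its other, dimmer probe set was called lower, at -1.48 ± 0.21 (adjusted p = 0.00034) and -1.68 ± 0.21 (adjusted p = 0.000116) in the fit of every probe set, so the 2 probe sets of this gene disagree. Of the other proteases, Ctsa, a carboxypeptidase that also stabilises β-galactosidase and sialidase, was called higher in neutrophils than in Mac1+ myeloblasts (0.43 ± 0.15, adjusted p = 0.0441), but the call held under 8 of 20 alternatives, with adjusted p up to 0.137. Lgmn, an asparagine endopeptidase, was dim, with 28.6, 65.3 and 70.1 in neutrophils against 19.5, 16.9 and 9.63 in Mac1+ myeloblasts (1.13 ± 0.28, adjusted p = 0.00802). Ctsb, a cysteine protease, was lower in neutrophils, at -0.91 ± 0.16 (adjusted p = 0.00129) against Mac1+ and -0.58 ± 0.16 (adjusted p = 0.0137) against Mac1- myeloblasts, though 1 dim probe set of this gene was called higher against Mac1- myeloblasts (0.63 ± 0.21).

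Glycosidases, the largest group, gave the highest count of genes lower in neutrophils. These were 5 of 11 (45.5%) against Mac1+ myeloblasts, with 1 higher, and 6 of 11 (54.5%) against Mac1- myeloblasts, with 3 higher. Of all genes 28.4% and 30.0% were lower in these comparisons, and of the measured membrane proteins 50.0% in each. Glb1, the β-galactosidase that cleaves GM1 ganglioside and keratan sulfate, had 164, 334 and 363 on the neutrophil arrays, 1645, 1889 and 2122 on the Mac1+ arrays and 2820.0, 2221 and 2464 on the Mac1- arrays. Every neutrophil value was below every myeloblast value. Glb1 was 6.57-fold lower in neutrophils than in Mac1+ myeloblasts (-2.72 ± 0.28, adjusted p = 3.37e-05) and 8.7-fold lower than in Mac1- myeloblasts (-3.12 ± 0.28, adjusted p = 1.07e-05). Gla, the α-galactosidase that degrades globotriaosylceramide, had 51.9, 89.4 and 176 on the neutrophil arrays, 544, 641 and 638 on the Mac1+ arrays and 861, 754 and 785 on the Mac1- arrays. The neutrophil arrays spread more than the others but did not overlap with them. Its differences were -2.48 ± 0.32 (adjusted p = 0.000171) and -2.87 ± 0.32 (adjusted p = 5.43e-05) against Mac1+ and Mac1- myeloblasts. Without neutrophil array 1 they were -2.13 and -2.52, and those of Glb1 -2.38 and -2.78.

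The other glycosidases lower in neutrophils in both comparisons were Naglu, which acts on heparan sulfate (-1.90 ± 0.30 against Mac1+ and -2.54 ± 0.30 against Mac1- myeloblasts), Gaa, which degrades glycogen (-1.73 ± 0.17 and -2.32 ± 0.17), and Gusb, the β-glucuronidase (-1.77 ± 0.18 and -1.91 ± 0.18). The other probe set of Gaa, a dimmer one, gave -3.52 and -4.24. The adjusted p-values of the 3 genes lay between 3.68e-06 and 0.000592. Manba, the β-mannosidase, gave -0.81 ± 0.32 (adjusted p = 0.065) against Mac1+ and -1.14 ± 0.32 (adjusted p = 0.0152) against Mac1- myeloblasts, of which the second passed. When neutrophil array 1 was left out, both passed and were closer to 0, at -0.37 (adjusted p = 0.0158) and -0.69 (adjusted p = 0.000485).

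In the opposite direction, Fuca1, the α-L-fucosidase, had 7468, 5298 and 4606 on the neutrophil arrays, 1643, 1812 and 1577 on the Mac1+ arrays and 1644, 1607 and 1663 on the Mac1- arrays. It was 3.36-fold higher in neutrophils than in Mac1+ myeloblasts (1.75 ± 0.19, adjusted p = 4.82e-05) and 3.44-fold higher than in Mac1- myeloblasts (1.78 ± 0.19, adjusted p = 3.45e-05), with no overlap. Neu1, the lysosomal sialidase, separated the myeloblast populations, with 1686, 2132 and 1943 on the neutrophil arrays, 1860.0, 2032 and 2545 on the Mac1+ arrays and 733, 541 and 577 on the Mac1- arrays. The Mac1- values were below all others, and neutrophil and Mac1+ values overlapped. Neu1 differed by 1.77 ± 0.18 (adjusted p = 0.000291) between Mac1+ and Mac1- myeloblasts, a 3.41-fold higher level, by 1.62 ± 0.18 (adjusted p = 6.1e-05) between neutrophils and Mac1- myeloblasts, and by -0.15 ± 0.18 (adjusted p = 0.528) between neutrophils and Mac1+ myeloblasts. Man2b1, the α-mannosidase, was higher in neutrophils than in Mac1- myeloblasts (0.67 ± 0.15, adjusted p = 0.00449) and gave 0.17 ± 0.15 (adjusted p = 0.38) against Mac1+ myeloblasts, where its dimmer probe set was higher by 2.24 ± 0.25 (adjusted p = 6.54e-05).

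Hexa, the α subunit of β-hexosaminidase, was called in no comparison, with 9203, 6694 and 6188 on the neutrophil arrays, 9045, 8751 and 9759.6 on the Mac1+ arrays and 9247, 9494 and 9439 on the Mac1- arrays. Idua, the α-L-iduronidase of heparan and dermatan sulfate breakdown, was not called either, with 522, 738 and 772 on the neutrophil arrays, 527, 555 and 576 on the Mac1+ arrays and 522, 586 and 559.9 on the Mac1- arrays. In both genes neutrophil array 1 lay away from arrays 2 and 3, towards the myeloblast values. Hexa gave -0.34 ± 0.17 (adjusted p = 0.133) and Idua 0.27 ± 0.17 (adjusted p = 0.233) between neutrophils and Mac1+ myeloblasts. Without array 1 these were -0.51 (adjusted p = 0.0037) and 0.44 (adjusted p = 0.00871). In the fit of every probe set the other, dimmer probe set of Idua was called lower in neutrophils. It gave -0.41 ± 0.14 (adjusted p = 0.042) against Mac1+ and -0.57 ± 0.14 (adjusted p = 0.00883) against Mac1- myeloblasts, so the 2 probe sets of Idua disagree.

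Of the 4 sulfatases, which remove sulfate from glycosaminoglycans and sulfolipids, 3 were higher and 1 was lower in neutrophils than in Mac1+ myeloblasts. Arsb, which acts on dermatan and chondroitin sulfate, had 882, 1431 and 1628 on the neutrophil arrays, 10387, 9769 and 11074 on the Mac1+ arrays and 6313, 6046 and 6248 on the Mac1- arrays. The 3 populations did not overlap, with Mac1+ myeloblasts highest. Arsb was 8.09-fold lower in neutrophils than in Mac1+ myeloblasts (-3.02 ± 0.22, adjusted p = 3.59e-06) and 4.83-fold lower than in Mac1- myeloblasts (-2.27 ± 0.22, adjusted p = 1.87e-05). Ids, the iduronate sulfatase, had 1286, 2584 and 2554 on the neutrophil arrays, 699, 707 and 719 on the Mac1+ arrays and 1215, 1186 and 1306 on the Mac1- arrays. Neutrophil arrays 2 and 3 were above all others, and neutrophil array 1 lay among the Mac1- values. Ids was higher by 1.51 ± 0.25 (adjusted p = 0.00092) against Mac1+ myeloblasts; against Mac1- myeloblasts the 0.72 ± 0.25 (adjusted p = 0.0398) held its call under 10 of 20 alternatives, and gave adjusted p = 0.124 without neutrophil array 2 and 0.113 without array 3. Without neutrophil array 1 it was 1.05 (adjusted p = 3.27e-05). Of its 5 dimmer probe sets, 1 was called higher in both comparisons (2.99 ± 0.18 and 2.21 ± 0.18) and 1 was called lower against Mac1- myeloblasts (-0.93 ± 0.22).

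Sgsh, the heparan N-sulfatase, had 1023, 654 and 583 on the neutrophil arrays, 314, 271 and 350.1 on the Mac1+ arrays and 403, 410.0 and 449 on the Mac1- arrays. All neutrophil values lay above the others, with array 1 highest. Its differences were 1.20 ± 0.22 (adjusted p = 0.00139) and 0.78 ± 0.22 (adjusted p = 0.0137) against Mac1+ and Mac1- myeloblasts. A second, dim probe set was called in the opposite direction, at -1.63 ± 0.20 and -1.62 ± 0.20, so the direction for Sgsh holds for the brighter probe set alone. Arsa, the arylsulfatase of sulfatide, was higher against Mac1+ myeloblasts (0.75 ± 0.23, adjusted p = 0.0243), which did not pass without Mac1+ array 1 (adjusted p = 0.0875), and gave 0.50 ± 0.23 (adjusted p = 0.102) against Mac1- myeloblasts.

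Of the 6 lipid and phosphate hydrolases, 3 were higher and 2 were lower in neutrophils, with the same counts against Mac1+ and against Mac1- myeloblasts. Acp5, the tartrate-resistant acid phosphatase, fell to 17.4, 7.97 and 23.5 in neutrophils, against 277, 313 and 427 in Mac1+ and 218, 171 and 136 in Mac1- myeloblasts. The neutrophil values lie near the offset of 16, so the difference depends on it. It was -3.47 ± 0.25 (adjusted p = 3.66e-06), 11.1-fold, against Mac1+ myeloblasts, and -2.57 ± 0.25 (adjusted p = 2.12e-05) against Mac1- myeloblasts, and alternatives ranged from -4.39 to -2.32 and from -3.44 to -1.56. The osteoclast genes Calcr, Ctsk, Oscar and Ocstamp, for which Acp5 is a companion marker, stayed at or below 138 on all 9 arrays, as did Dcstamp and Atp6v0d2; Itgb3, the other gene of that list, was higher in neutrophils (2013, 2008 and 2038) than in Mac1+ myeloblasts (584, 615 and 651).

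Acp2, the lysosomal acid phosphatase, had 116, 192 and 177 on the neutrophil arrays, 383, 469 and 472 on the Mac1+ arrays and 369, 276 and 293 on the Mac1- arrays. Neutrophil values were below all others, with differences of -1.38 ± 0.21 (adjusted p = 0.000461) and -0.90 ± 0.21 (adjusted p = 0.0053) against Mac1+ and Mac1- myeloblasts. Smpd1, the acid sphingomyelinase, had 2012, 1572 and 1493 on the neutrophil arrays, 637, 760.4 and 766 on the Mac1+ arrays and 572, 528 and 542 on the Mac1- arrays. The neutrophil values were above all others, by 1.20 ± 0.16 (adjusted p = 0.000199) and 1.59 ± 0.16 (adjusted p = 2.59e-05). Ppt1, which removes palmitate from proteins, was likewise higher (0.75 ± 0.15 and 1.12 ± 0.15), as was Lipa, the acid lipase of cholesteryl esters and triglycerides (0.68 ± 0.14 and 0.54 ± 0.14), with adjusted p between 0.000163 and 0.00901. Asah1, the acid ceramidase, was called in no comparison, with 4094, 4425 and 4181 on the neutrophil arrays, 3684, 3158 and 3631 on the Mac1+ arrays and 4589.5, 4253 and 4619.8 on the Mac1- arrays. Its differences were 0.28 ± 0.13 (adjusted p = 0.112) and -0.08 ± 0.13 (adjusted p = 0.625).

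**Figure D3:**
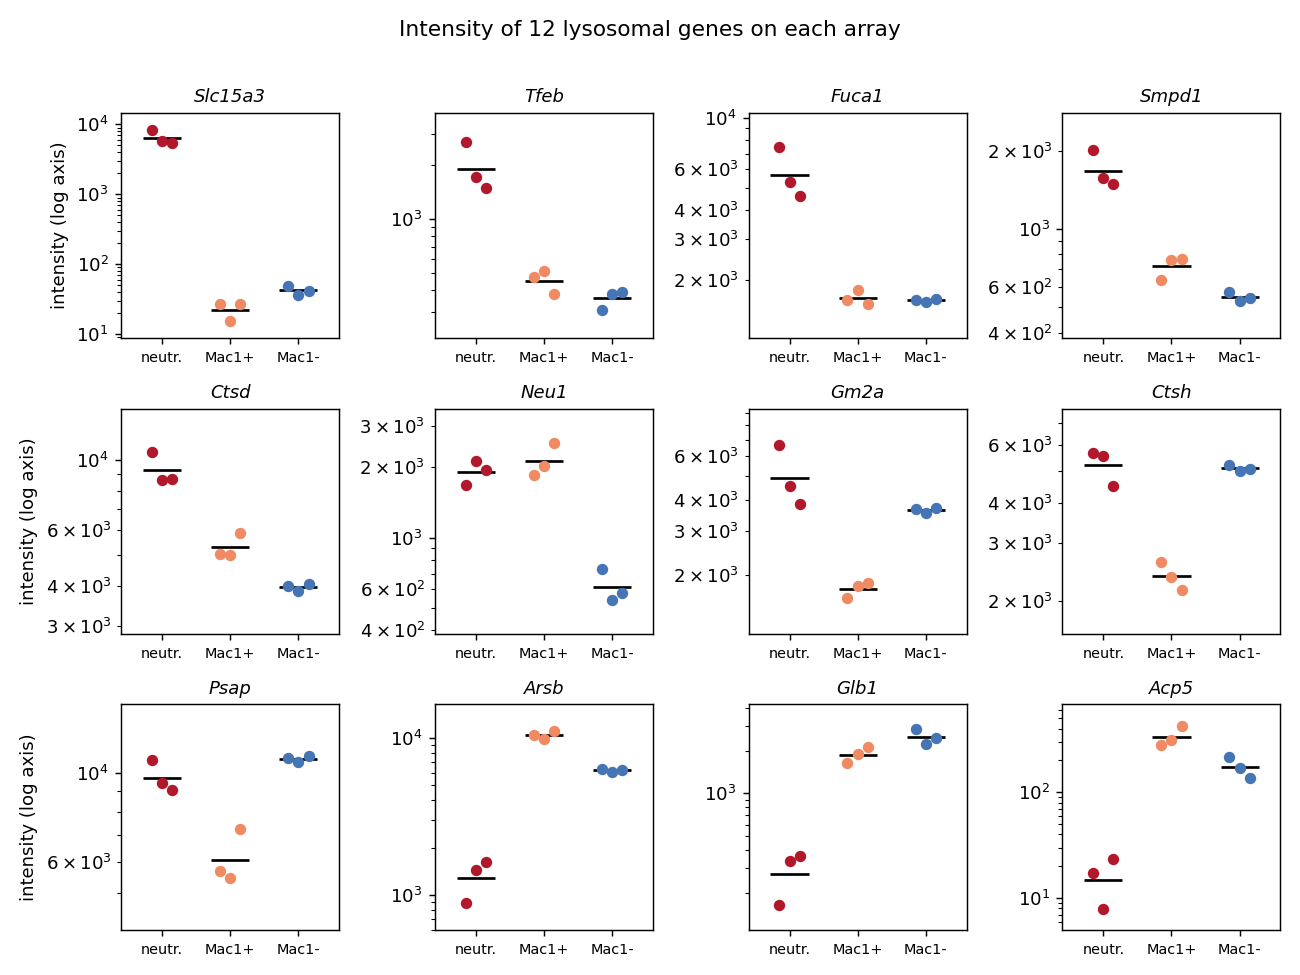
Intensities of 12 of the genes on each array, on a log axis whose range differs between panels; points are arrays, coloured by population, and bars are geometric means. The panels of Slc15a3, Tfeb, Fuca1, Smpd1 and Ctsd have neutrophils on top, those of Arsb, Glb1 and Acp5 have them lowest, and in those of Gm2a, Ctsh and Psap the Mac1+ myeloblasts are lowest.

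The activators and carriers followed more than 1 pattern. Gm2a, the activator that lifts GM2 ganglioside to β-hexosaminidase, had 6688, 4569.9 and 3854 on the neutrophil arrays, 1617, 1801 and 1856 on the Mac1+ arrays and 3673, 3564 and 3706 on the Mac1- arrays. Mac1+ values were below all others, and every neutrophil value was above every Mac1- value. Gm2a differed by -1.05 ± 0.20 (adjusted p = 0.00919) between Mac1+ and Mac1- myeloblasts and by 1.47 ± 0.20 (adjusted p = 0.000243) between neutrophils and Mac1+ myeloblasts, and by 0.43 ± 0.20 (adjusted p = 0.109) between neutrophils and Mac1- myeloblasts. In the fit of every probe set a dim probe set of Gm2a was called lower in neutrophils than in Mac1- myeloblasts (-1.72 ± 0.57, adjusted p = 0.0331). That probe set was not called against Mac1+ myeloblasts (-0.12 ± 0.57, adjusted p = 0.89). Psap, the precursor of the saposins that help sphingolipid hydrolases, had 10808, 9465 and 9047 on the neutrophil arrays, 5676, 5446 and 7227 on the Mac1+ arrays and 10909, 10688 and 11044 on the Mac1- arrays. The Mac1+ values were again lowest. Its differences were -0.84 ± 0.15 (adjusted p = 0.00739) between the myeloblast populations, 0.68 ± 0.15 (adjusted p = 0.00538) between neutrophils and Mac1+ myeloblasts and -0.16 ± 0.15 (adjusted p = 0.422) between neutrophils and Mac1- myeloblasts.

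Ctsh, Ctsl, Gm2a and Psap were the 4 genes called lower in Mac1+ than in Mac1- myeloblasts and higher in neutrophils than in Mac1+ myeloblasts. Both comparisons use the Mac1+ arrays, and the share of all genes with this pair of calls is not given here. Without neutrophil array 1, Ids (-0.79), Lgmn (-0.61), Sgsh (-0.42) and Slc15a3 (-0.59) were also called lower in Mac1+ than in Mac1- myeloblasts, with adjusted p from 0.000538 to 0.041. They were among 15 of the 44 genes lower in that fit, beside 23.0% of all genes called in either direction. Ctsz (-0.51), Gaa (-0.59), Manba (-0.32) and Naglu (-0.64) were among the 15 too. These 4 were lower still in neutrophils than in Mac1+ myeloblasts in the same fit (-1.08, -1.79, -0.37 and -1.51). The call of Ctsl between the myeloblast populations held under 14 of 20 alternatives. The summed intensity of 16 measured monocyte and macrophage markers (18 listed) was lowest in Mac1+ myeloblasts as well, with 19616 to 31048 on neutrophil arrays, 6784 to 8335 on Mac1+ arrays and 37969 to 40633 on Mac1- arrays. Single markers did not all follow the sum. Csf1r, Adgre1, Mpeg1, Cd14 and Klf4 were called lower in Mac1+ than in Mac1- myeloblasts and higher in neutrophils than in Mac1+ myeloblasts. Ly86, Cx3cr1 and Irf8 were called lower in the first comparison but not called in the second. Mrc1 was called only in the second, lower in neutrophils (-1.32 ± 0.45). Siglec1 and Fcgr1 were also called only there, higher in neutrophils. Ccr2, C1qa, C1qb, C1qc and Marco were called in neither. Csf1r had 12949, 7976 and 7112 on the neutrophil arrays, 485, 507 and 715 on the Mac1+ arrays and 8385, 8166 and 8797 on the Mac1- arrays. Irf8 was highest in Mac1- myeloblasts, with 373, 623 and 309 on the neutrophil arrays, 432, 549 and 1047 on the Mac1+ arrays and 13516, 12624 and 13335 on the Mac1- arrays. Of the 16 markers, 4 stayed at or below 100 on every neutrophil array, and 6 on every array of each myeloblast population. The macrophage gene Marco was at 1 on 8 of the 9 arrays, C1qa, C1qc, Mrc1 and Siglec1 did not exceed 209 on any, and C1qb had 657, 192 and 107 on the neutrophil arrays, 102, 89.8 and 85.9 on the Mac1+ arrays and 93.2, 73.1 and 83.0 on the Mac1- arrays. The part of monocytic cells in these differences was not tested.

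Npc2, which carries cholesterol in the lumen, was lower in neutrophils, with 7277, 5272 and 4694 on the neutrophil arrays, 8755, 8535 and 10059.9 on the Mac1+ arrays and 11919.7, 11509 and 11537 on the Mac1- arrays. Its values did not overlap between the 3 populations. The differences were -0.69 ± 0.18 (adjusted p = 0.0118) and -1.04 ± 0.18 (adjusted p = 0.000949) against Mac1+ and Mac1- myeloblasts; 1 of the other probe sets was called higher against Mac1+ myeloblasts, by 0.78 ± 0.15, and the mean of all its probe sets gave -0.09 (adjusted p = 0.646). Grn, which encodes progranulin, a glycoprotein cleaved to granulins in lysosomes, was not called, with 11895, 7779 and 7383 on the neutrophil arrays, 10696, 10092 and 11005 on the Mac1+ arrays and 8065, 8301 and 8780.4 on the Mac1- arrays. Neutrophil array 1 was the highest of all 9 arrays and neutrophil arrays 2 and 3 the lowest. The difference from Mac1+ myeloblasts was -0.27 ± 0.19 (adjusted p = 0.286), and -0.48 (adjusted p = 0.00485) without array 1. In the fit of every probe set another, slightly dimmer probe set of Grn was called. It was higher in Mac1+ than in Mac1- myeloblasts (0.66 ± 0.14, adjusted p = 0.0165) and lower in neutrophils than in Mac1+ myeloblasts (-0.49 ± 0.14, adjusted p = 0.0178). The remaining probe set was called in no comparison.

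Of the 6 measured membrane proteins, 2 were higher and 3 lower in neutrophils in each of the neutrophil comparisons. Slc15a3, a proton-coupled transporter of histidine and peptides, had 8218, 5764 and 5411 on the neutrophil arrays, 27.1, 15.5 and 27.2 on the Mac1+ arrays and 49.5, 36.8 and 41.8 on the Mac1- arrays. All myeloblast values were below 50, far under the lowest neutrophil value. This was the largest difference among the 44 genes, 7.36 ± 0.21 (adjusted p = 4.04e-08) against Mac1+ and 6.77 ± 0.21 (adjusted p = 3.02e-08) against Mac1- myeloblasts. As the myeloblast values are dim, the size depends on the offset: it was 8.08 and 7.19 with an offset of 1, and 6.20 and 5.91 with an offset of 64. Npc1, which exports cholesterol through the lysosomal membrane, had 948, 702 and 852 on the neutrophil arrays, 353, 332 and 377 on the Mac1+ arrays and 452, 454 and 447 on the Mac1- arrays. It was higher in neutrophils by 1.19 ± 0.15 (adjusted p = 0.000133) and 0.85 ± 0.15 (adjusted p = 0.000979), while its luminal partner Npc2 was lower.

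Lamp1, an abundant glycoprotein of the lysosomal membrane, had 6278, 5542 and 5077 on the neutrophil arrays, 8777, 8164 and 9689 on the Mac1+ arrays and 10269, 10152 and 10621 on the Mac1- arrays. The neutrophil values were below all others, with differences of -0.66 ± 0.14 (adjusted p = 0.00398) and -0.88 ± 0.14 (adjusted p = 0.000582). Lamp2, its relative with a role in autophagy, was not called, with 9192, 7892 and 6816 on the neutrophil arrays, 9529, 9659.9 and 9834 on the Mac1+ arrays and 8376, 7831 and 8522 on the Mac1- arrays. Its differences were -0.29 ± 0.15 (adjusted p = 0.137) and -0.06 ± 0.15 (adjusted p = 0.762), and the first became -0.40 (adjusted p = 0.0164) without neutrophil array 1. Scarb2, which transports β-glucocerebrosidase, was lower, at -0.38 ± 0.14 (adjusted p = 0.044) and -0.78 ± 0.14 (adjusted p = 0.000963), the first of which held its call under 5 of 20 alternatives, and its dimmer probe set was higher by 0.63 ± 0.16 and 0.61 ± 0.16. Mcoln1, a calcium channel, was lower, at -0.75 ± 0.14 (adjusted p = 0.00171) and -0.44 ± 0.14 (adjusted p = 0.024), of which the second became 0.02 when arrays were centred on their medians.

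Of the 4 V-ATPase subunits, 1 was higher and 1 lower in neutrophils than in Mac1+ myeloblasts, and 2 were higher than in Mac1- myeloblasts. Atp6ap1, an accessory subunit needed for assembly, had 5235, 5499.5 and 5068 on the neutrophil arrays, 3741, 3511 and 3052 on the Mac1+ arrays and 3076, 3581 and 3669 on the Mac1- arrays. Neutrophil values were above all others, by 0.62 ± 0.14 (adjusted p = 0.00608) and 0.61 ± 0.14 (adjusted p = 0.00559). Atp6v0d1, of the membrane sector, had 5162, 5634 and 4952 on the neutrophil arrays, 5300.3, 4947 and 5239 on the Mac1+ arrays and 3707, 3854 and 4125 on the Mac1- arrays. Its neutrophil and Mac1+ values overlapped and both were above the Mac1- values; the difference was 0.43 ± 0.13 (adjusted p = 0.02) against Mac1- myeloblasts and 0.02 ± 0.13 (adjusted p = 0.899) against Mac1+ myeloblasts. Atp6v1a, the catalytic subunit, had 1412, 3742 and 3818 on the neutrophil arrays, 5500.1, 5033 and 5333 on the Mac1+ arrays and 3537, 3783 and 4061 on the Mac1- arrays. The low value of neutrophil array 1 carried much of its difference, -0.95 ± 0.34 (adjusted p = 0.0456) against Mac1+ myeloblasts with all arrays and -0.48 (adjusted p = 0.00613) without it; the call held under 9 of 20 alternatives, with adjusted p up to 0.185. Atp6v1b2, the other nucleotide-binding subunit of the pump, was called in no comparison, with 5878, 5405 and 5050.3 on the neutrophil arrays, 4558, 4038 and 4716 on the Mac1+ arrays and 5020.5, 4946 and 4997 on the Mac1- arrays (0.29 ± 0.13, adjusted p = 0.101 and 0.12 ± 0.13, adjusted p = 0.47).

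Tfeb itself was higher in neutrophils, with 2710.5, 1716 and 1486 on the neutrophil arrays, 472, 509 and 380.4 on the Mac1+ arrays and 311, 381 and 391 on the Mac1- arrays. Every neutrophil value lay above every myeloblast value, and the myeloblast populations overlapped. The level was 4.12-fold higher than in Mac1+ myeloblasts (2.04 ± 0.24, adjusted p = 8.09e-05) and 5.12-fold higher than in Mac1- myeloblasts (2.36 ± 0.24, adjusted p = 2.52e-05), and without neutrophil array 1 the differences were 1.79 and 2.10. Of the 14 genes with CACGTG in a promoter, 6 were higher in neutrophils than in Mac1+ myeloblasts, 7 were lower and 1 did not pass, with a median difference of -0.32. Of the 24 matched genes without it, 9 were higher, 7 lower and 8 did not pass, with a median of -0.20. The genes with the motif therefore included both directions, from Ctsl at 1.27 to Glb1 at -2.72.

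**Figure D4:**
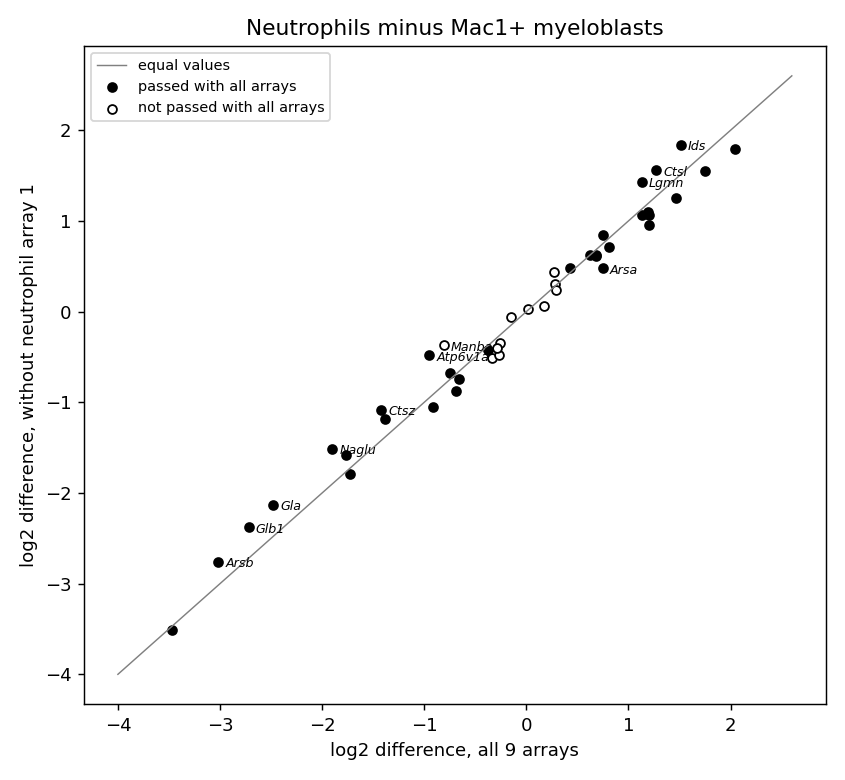
Log2 differences between neutrophils and Mac1+ myeloblasts with all arrays (horizontal) and without neutrophil array 1 (vertical) for 43 genes; Slc15a3, at 7.36 and 7.17, lies outside the axes. Points off the line of equal values include Manba, Naglu, Atp6v1a, Gla, Glb1 and Ctsz, which lie closer to 0 without the array, and Ids, Ctsl and Lgmn, which lie further from it.

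The remaining lysosomal machinery was examined through 5 further lists. Of all genes, 19.7% were higher and 28.4% lower in neutrophils than in Mac1+ myeloblasts, and 22.6% and 30.0% than in Mac1- myeloblasts. Between Mac1+ and Mac1- myeloblasts 6.31% were higher and 5.51% lower. Without neutrophil array 1, 54.0%, 58.3% and 23.0% of all genes were called in these comparisons. Called shares of the lists against Mac1+ myeloblasts ran from 33.3% (V-ATPase subunits) to 61.1% (hydrolases and activators), beside 48.1% of all genes. Of 36 measured hydrolases and activators outside the 44 genes (43 listed), 9 were higher and 13 lower in neutrophils than in Mac1+ myeloblasts, 10 higher and 14 lower than in Mac1- myeloblasts, and 4 higher and 6 lower in Mac1+ than in Mac1- myeloblasts. These counts were 12 and 12, 12 and 15, and 6 and 11 without neutrophil array 1. Plbd1, a phospholipase B-like protein, had 13484, 12414 and 12331 on the neutrophil arrays, 1790.0, 1227 and 1059 on the Mac1+ arrays and 39.9, 28.8 and 26.8 on the Mac1- arrays. It was higher in neutrophils by 3.25 ± 0.21 (adjusted p = 1.74e-06) and 8.07 ± 0.21 (adjusted p = 1.91e-08), and in Mac1+ over Mac1- myeloblasts by 4.82 ± 0.21 (adjusted p = 2.71e-06). Ctss, a cysteine protease of antigen processing, was lower in Mac1+ than in Mac1- myeloblasts (-4.76 ± 0.17, adjusted p = 1.22e-06), as were Ctsh and Ctsl. Like them it was also higher in neutrophils than in Mac1+ myeloblasts (3.83 ± 0.17, adjusted p = 2.43e-07). Ctse, an aspartic protease, was higher in neutrophils (4.18 ± 0.16, adjusted p = 1.21e-07 against Mac1+ myeloblasts). Cpq, a carboxypeptidase, was lower (-4.90 ± 0.31, adjusted p = 1.7e-06 and -4.97 ± 0.31, adjusted p = 1.17e-06). Hpse, the heparanase, and Scpep1, a serine carboxypeptidase, were lower in neutrophils than in Mac1- myeloblasts (-4.40 ± 0.35 and -4.63 ± 0.59) and in Mac1+ than in Mac1- myeloblasts (-2.43 ± 0.35 and -4.08 ± 0.59).

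Of 33 other membrane proteins and transporters (34 listed), 13 were higher and 7 lower in neutrophils than in Mac1+ myeloblasts, 14 higher and 8 lower than in Mac1- myeloblasts, and 2 higher and 5 lower in Mac1+ than in Mac1- myeloblasts. They were 14 and 9, 15 and 8, and 7 and 7 without neutrophil array 1. Slc11a1, which pumps divalent metal ions out of phagosomes, had 4954, 4969 and 4149.9 on the neutrophil arrays, 83.7, 68 and 53.6 on the Mac1+ arrays and 84.7, 58.2 and 68 on the Mac1- arrays. Its separation of neutrophils from both myeloblast populations was of the kind seen for Slc15a3, 5.81 ± 0.19 (adjusted p = 5.02e-08) and 5.78 ± 0.19 (adjusted p = 3.45e-08). Cln3 (2.66 ± 0.15 and 2.88 ± 0.15) and Tpcn2, an ion channel (2.70 ± 0.14 against Mac1- myeloblasts), were also higher, and Slc36a4, an amino acid transporter, was lower (-3.27 ± 0.26 against Mac1+ myeloblasts). Cd68, a glycoprotein typical of macrophages, was lower in Mac1+ than in Mac1- myeloblasts (-1.58 ± 0.21, adjusted p = 0.00129) and higher in neutrophils than in Mac1+ myeloblasts (2.95 ± 0.21, adjusted p = 3.41e-06). Of 18 other V-ATPase subunits (19 listed), 2 were higher and 4 lower against Mac1+ myeloblasts, 4 higher and 4 lower against Mac1- myeloblasts, and 1 was higher between the myeloblast populations (Atp6v1d, 0.59 ± 0.14). The V-ATPase counts were 3 higher and 5 lower, 6 and 4, and 5 and 1 without neutrophil array 1. The membrane-sector subunit Atp6v0a1 was higher in neutrophils (3.10 ± 0.17 and 2.72 ± 0.17), whereas Tcirg1, which encodes an alternative form of the same subunit, was lower (-1.21 ± 0.15 and -0.82 ± 0.15).

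Of 16 genes that tag and sort the hydrolases, 1 was higher and 8 were lower in neutrophils than in Mac1+ myeloblasts, and 4 were higher and 5 lower than in Mac1- myeloblasts. Gga2, an adaptor that loads mannose 6-phosphate receptors into vesicles, had 43.4, 12.4 and 16.4 on the neutrophil arrays, 4865, 4693 and 5124 on the Mac1+ arrays and 3176, 3507 and 3257 on the Mac1- arrays. It was lower in neutrophils, at -7.01 ± 0.25 (adjusted p = 9.03e-08) and -6.45 ± 0.25 (adjusted p = 8.01e-08). Gnptab, whose product starts the mannose 6-phosphate tag (-2.36 ± 0.67, adjusted p = 0.0165 and -2.91 ± 0.67, adjusted p = 0.00496), Ap1s1, an adaptor subunit (-2.21 ± 0.13 and -2.39 ± 0.13), and M6pr, the smaller of the mannose 6-phosphate receptors (-1.76 ± 0.14 against Mac1+ myeloblasts), were lower as well. Igf2r, the larger receptor, had 848, 942 and 1295 on the neutrophil arrays, 1053, 1121 and 1091 on the Mac1+ arrays and 42.2, 46.7 and 33.6 on the Mac1- arrays. It was higher in Mac1+ than in Mac1- myeloblasts by 4.29 ± 0.18 (adjusted p = 2.6e-06). In that comparison 3 genes of the list were higher and 0 lower, and 5 were higher and 1 lower without neutrophil array 1; the neutrophil comparisons then had 1 higher and 8 lower against Mac1+ and 4 and 6 against Mac1- myeloblasts.

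Among 20 genes of the TFEB family and of the scaffold on which mTORC1 controls these factors at the lysosome (21 listed), 4 were higher and 8 lower in neutrophils than in Mac1+ myeloblasts, 5 higher and 8 lower than in Mac1- myeloblasts, and 2 higher and 1 lower in Mac1+ than in Mac1- myeloblasts. The same counts were 5 and 8, 7 and 8, and 5 and 1 without neutrophil array 1. The relatives of Tfeb differed in direction. Tfe3 had 3339, 3189 and 3072 on the neutrophil arrays, 464, 467 and 511 on the Mac1+ arrays and 658, 493 and 548 on the Mac1- arrays, higher in neutrophils by 2.70 ± 0.15 (adjusted p = 6.68e-07) and 2.47 ± 0.15 (adjusted p = 8.24e-07). Tfec had 126, 85.6 and 62.9 on the neutrophil arrays, 4967, 4866 and 6057 on the Mac1+ arrays and 6205, 5307 and 5679 on the Mac1- arrays, lower in neutrophils, at -5.66 ± 0.22 (adjusted p = 1.21e-07) and -5.78 ± 0.22 (adjusted p = 6.66e-08). Mitf had 1132, 1065 and 769 on the neutrophil arrays, 326, 357 and 363 on the Mac1+ arrays and 545, 603 and 554 on the Mac1- arrays, was higher in neutrophils by 1.44 ± 0.17 and 0.77 ± 0.17, and was lower in Mac1+ than in Mac1- myeloblasts, at -0.68 ± 0.17 (adjusted p = 0.0327). None of these 3 genes overlapped between neutrophils and either myeloblast population. Rragd, a Rag GTPase (3.20 ± 0.36 and 3.34 ± 0.36), and Fnip2, a partner of folliculin (2.22 ± 0.20 and 1.95 ± 0.20), were higher in neutrophils.

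**Figure D5:**
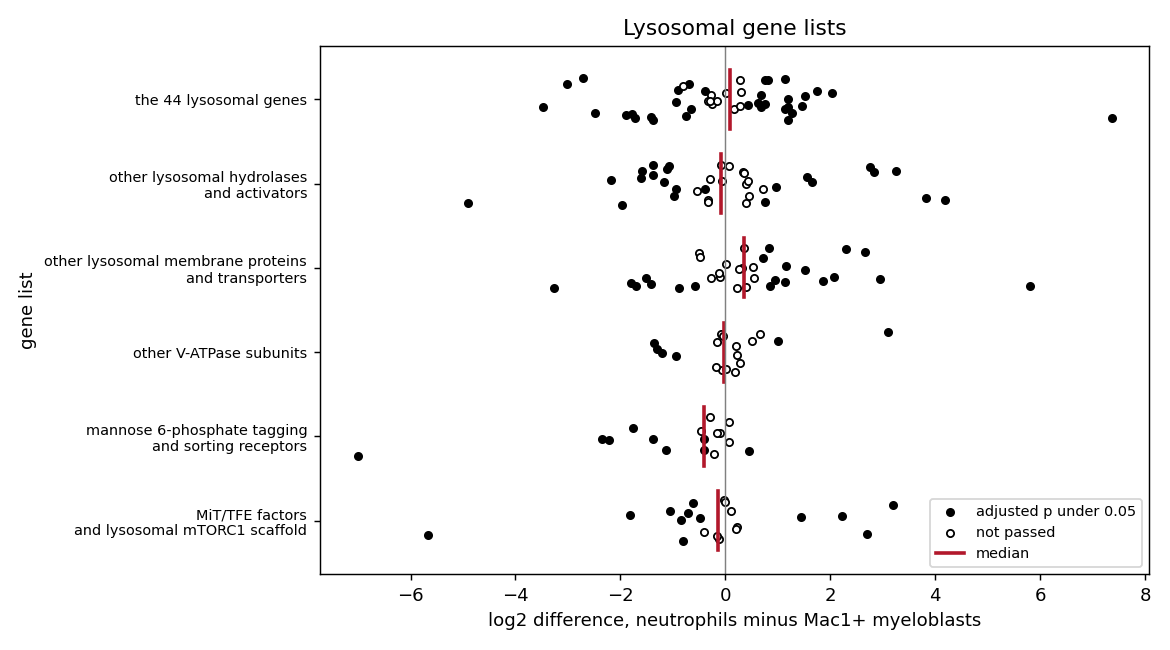
Log2 differences between neutrophils and Mac1+ myeloblasts for the 44 lysosomal genes (top row) and the 5 other lists, with filled points for an adjusted p under 0.05, open points for genes that did not pass and a red line at each list's median. Each list holds called genes on both sides of 0, and the genes at the far ends are Slc15a3 at 7.36 and Gga2 at -7.01.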

How the data were processed

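The authors deposited one table of probe set intensity values on a linear scale for 9 arrays; the software, the background correction and the scaling are not given in the sources used here. Array means ran from 549.4 to 727.4 and medians from 39.1 to 61.8. Precision is limited by having 3 arrays per population, and no detection calls were used. RNA was column-purified and amplified with a kit that copies it repeatedly before biotin labelling, per the labels' protocols, which favours transcript 3′ ends.

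Of 45101 probe sets, 34945 name 1 gene in the platform annotation, 932 several and 9160 none, with 64 controls besides. Probe sets naming a single gene were kept; 99.4% matched a gene table of GRCm38.p6 by gene ID. The brightest probe set per gene was kept for 9010 genes with several. Differences of log2(intensity + 16) were fitted with limma 3.58.1 in R 4.3.3, all 9 arrays sharing 1 variance estimate per gene, with Benjamini-Hochberg adjustment over 18193 genes. The offset understates changes of dim genes.

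The members and gene lists were chosen with earlier results of these data known. Values per array are given for the 2 called genes with the largest difference per role and comparison and for genes never called; from each other list up to 4 called genes per comparison are named, with values for some of them. Fuca1, given per array beyond this rule, and the genes of the other lists given per array were chosen after their values were seen. Alternatives were quantile normalization, centring on array medians, the replicate number as a block, an offset of 1 or 64, dropping dim genes (mean level below the 40th percentile), averaging the probe sets of a gene, dropping probe sets with suffix x or s, a trended and robust prior, a fit of the 2 populations compared, and leaving out each array. The fit of every probe set on its own was added after seeing the data. Tested on simulated data with 18193 genes for neutrophils against Mac1+ myeloblasts, the procedure recovered 38 of 100 genes changed by 1 on the log2 scale and 82 of 100 changed by 2. No other genes were changed there, whereas 8754 genes were called in the data, and the adjustment is stricter when few genes change. Each gene's spread was pooled over the populations. These recoveries therefore do not estimate the share of changes found in the data. Sequences are from RefSeq.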

Additional observations from a re-analysis of the deposited data

How the results depend on the processing

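Of the called differences of the 44 genes, 4 of 5 (Mac1+ against Mac1- myeloblasts), 26 of 33 (neutrophils against Mac1+) and 21 of 29 (neutrophils against Mac1-) kept direction and call under every alternative run for them, 20 in all, or 19 for Atp6ap1, whose probe set has the suffix s, and for Lgmn, which is dim; those that did not were Ctsl in the first of these comparisons, Arsa, Atp6v1a, Ctsa, Lgmn, Npc2, Scarb2 and Sgsh in the second, and Acp2, Atp6v0d1, Ctsb, Ids, Manba, Mcoln1, Scarb2 and Sgsh in the third. The count between myeloblast populations moved most. The 1 gene higher became 2 under quantile normalization and without suffix x or s probe sets, 4 with the mean of probe sets, 5 without dim genes or with the trended prior, 6 with an offset of 64, 9 with centring and 10 in the fit of 2 populations, and 1 to 11 without each array. The 4 lower became 7 with an offset of 64, 16 in the fit of 2 populations and 3 to 15 without each array. Leaving out each array gave 16 to 19 higher and 13 to 20 lower between neutrophils and Mac1+, and 12 to 16 and 13 to 16 between neutrophils and Mac1- myeloblasts.

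Centring moved the median of all genes from -0.01, 0.05 and 0.05 to 0.17, 0.33 and 0.51 in the 3 comparisons (Mac1+ against Mac1-, neutrophils against Mac1+, neutrophils against Mac1-), and raised the higher calls between neutrophils and Mac1- myeloblasts from 14 to 25 of the 44 genes. Over all genes it took higher calls from 1148 of 2151 to 1724 of 2436, from 3591 of 8754 to 6131 of 10398 and from 4109 of 9570 to 8147 of 12380. It turned the sign of Hexa (0.15), Gusb (0.05), Idua (0.18), Lipa (0.04), Atp6v1b2 (0.01) and Atp6ap1 (0.18) in the first comparison, of Tpp1 (0.03), Neu1 (0.13) and Grn (0.02) in the second, and of Hexa (0.09), Asah1 (0.38), Psap (0.31), Lamp2 (0.41) and Mcoln1 (0.02) in the third. Quantile normalization turned Fuca1 (-0.02) in the first, Neu1 (0.05), Grn (0.12) and Lamp2 (0.06) in the second, and Asah1 (0.04), Psap (0.17) and Lamp2 (0.23) in the third. The mean of probe sets turned Fuca1 (-0.02) in the first, Idua (-0.07), Sgsh (-0.22) and Scarb2 (0.12) in the second, and Tpp1 (-0.83), Idua (-0.15), Sgsh (-0.42) and Gm2a (-0.26) in the third. Leaving out single arrays turned the sign of uncalled differences, given here as ranges over the 9 arrays left out: Hexa (-0.08 to 0.0004), Idua (-0.05 to 0.03), Fuca1 (-0.02 to 0.07) and Atp6ap1 (-0.08 to 0.08) in the first; Atp6v0d1 (-0.03 to 0.06) in the second; Ctsh (-0.03 to 0.14), Ctsl (-0.13 to 0.38), Tpp1 (-0.08 to 0.08), Grn (-0.14 to 0.20) and Lamp2 (-0.17 to 0.05) in the third. The cause of these changes was not tested. Same-numbered arrays did not deviate together (correlations from -0.307 to 0.132); with the replicate number as a block, counts were 1 higher and 4 lower, 17 and 14, and 13 and 15 in the 3 comparisons.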
